A study of Sus scrofa with 12 samples.

Results

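The mesenchymal microRNAs miR-199a, miR-199b, miR-214, miR-29a, miR-29b and miR-29c were described in adipose mesenchymal stromal/stem cells (MSCs) of the pig and in the extracellular vesicles (EVs) that these cells released. With earlier results of these data known, members were taken by name, as every mature miRNA called ssc-miR-199a, ssc-miR-199b, ssc-miR-214, ssc-miR-29a, ssc-miR-29b or ssc-miR-29c with any arm suffix. This gave 8 of the 326 mature names in the small RNA tables, which stood in 11 of 385 entries, and the entry with the largest total was used for each name, so that a level is that of 1 entry unless it is said to be summed. The 8 names were miR-199a-5p, miR-199a-3p, miR-199b-5p, miR-199b-3p, miR-214, miR-29a, miR-29b and miR-29c. All 8 passed the filter on low counts, as did 220 of the 326 names.

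A miRNA gene is transcribed into a hairpin precursor, whose arms give the mature 5p and 3p strands. One strand is loaded into an Argonaute protein, and bases near its 5′ end, the seed, pair with sites in messenger RNAs and lower their translation or stability. miR-199 and miR-214 are best known as miRNAs of fibroblasts, bone and other mesenchymal tissue, where TWIST1 switches on the transcript that carries both. miR-29 is known as a brake on collagen, elastin and other matrix genes and on enzymes that set and remove DNA methylation, and it is often low in fibrosis.

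The study asked which RNAs are richer in EVs than in their parent MSCs. Fat was taken from the abdomen of 3 female domestic pigs aged 3 months, and the cells were grown in medium with platelet lysate to passage 3. Both groups therefore came from the same animals, sex, age, tissue and culture, with no other treatment, and the EVs were pelleted by ultracentrifugation from supernatants of the cultures. RNA of each pig's MSCs and EVs was sequenced as small RNA and as mRNA, so that each assay had 3 MSC and 3 EV libraries, named here by pig. The labels describe no step that removes RNA outside vesicles, and a lower share of a miRNA in a library cannot be told apart from a higher amount of the other RNAs in it.

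The MSC libraries of pigs 1, 2 and 3 held 15395871, 14709463 and 9455607 miRNA counts, and the EV libraries held 656888, 19454 and 18374. Some libraries stood apart. Among them were both small RNA libraries of pig 3, whose titles also follow another form and code than those of pigs 1 and 2. What that code stands for is not given. miR-21 took 74.4% of the counts of the MSC library of pig 3 and 28.8% and 33.5% of the others. The EV library of pig 3 had the lowest total but listed 187 names above 0, whereas the EV libraries of pigs 1 and 2 listed 128 and 79. The 7 listed blood and endothelial miRNAs summed to 3837 CPM (the deposited counts, scaled to a common library total) there, to 41.9 and 0 in the other EV libraries, and to between 88.9 and 114 in the MSC libraries. That sum came mostly from miR-486 with 45 counts and miR-126-3p with 22, and miR-142-5p was at 0 in all EV libraries. The 7 listed miRNAs of muscle, liver and neurons summed to 780 CPM in the EV library of pig 3, to 126 and 0 in the other EV libraries and to between 89.5 and 156 in MSCs, with 4 of them at 0 in all EV libraries. In the mRNA libraries the MSC genes CD44, NT5E and ENG and the EV gene CD63 were detected throughout, whereas THY1 was listed at 0 reads under an entry whose span was shared with an entry of 49577 reads. The endothelial gene PECAM1 had between 20 and 215 reads a library, and VWF had 0. Of the blood genes, the monocyte gene CD14 had between 416 and 771, whereas PTPRC had between 2 and 10. The EV genes CD9 and ITGB1 had at most 7 and 3 reads in a library, each beside another entry over the same span.

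Most of the 8 members were less abundant in EVs than in MSCs, and miR-214 had the lowest fitted fold change among those with EV counts. Of the 8 members, 5 were lower in EVs by the thresholds of the study (fold change over 2 and unadjusted p under 0.05), and none was higher. The 5 were miR-199a-3p, miR-199b-3p, miR-214, miR-29a and miR-29b, of which the first pair rests on the same reads. miR-29b, at 0 in every EV library, passed the filter only through the MSC libraries and could not have been called higher. The share of all tested miRNAs lower by these thresholds was 24.1%, and the share higher was 6.36%. No member and no other miRNA passed a Benjamini-Hochberg adjustment in edgeR's quasi-likelihood test, whose lowest adjusted p was 0.0813 (67 miRNAs had an unadjusted p under 0.05, and with DESeq2 14 passed as lower and 14 as higher). The median log2 fold change of all 220 miRNAs was -0.999, and 7 of the 8 members lay below it, whereas 3 did so with limma at a pseudocount of 0.1, where the median was -3.38. With the pig as a block, the members called lower were again 5 but miR-199a-5p replaced miR-29b, while the count over all miRNAs fell from 53 to 14. Without the EV library of pig 3, the number of members past the adjusted threshold rose from 0 to 6, and the number of all miRNAs lower rose from 0 to 96. That fit tested 243 miRNAs with a median log2 fold change of -6.39, and 2 of the 8 members lay below it, so the values of the whole table moved with those of the members. Without any other single library the number of members lower by the study thresholds fell from 5 to 2, or to 3 without the EV library of pig 1. Over all miRNAs the number lower by these thresholds fell from 53 to 18, 16 and 25 without the MSC libraries of pigs 1, 2 and 3. It fell to 43 and 47 without the EV libraries of pigs 1 and 2.

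**Figure D1:**
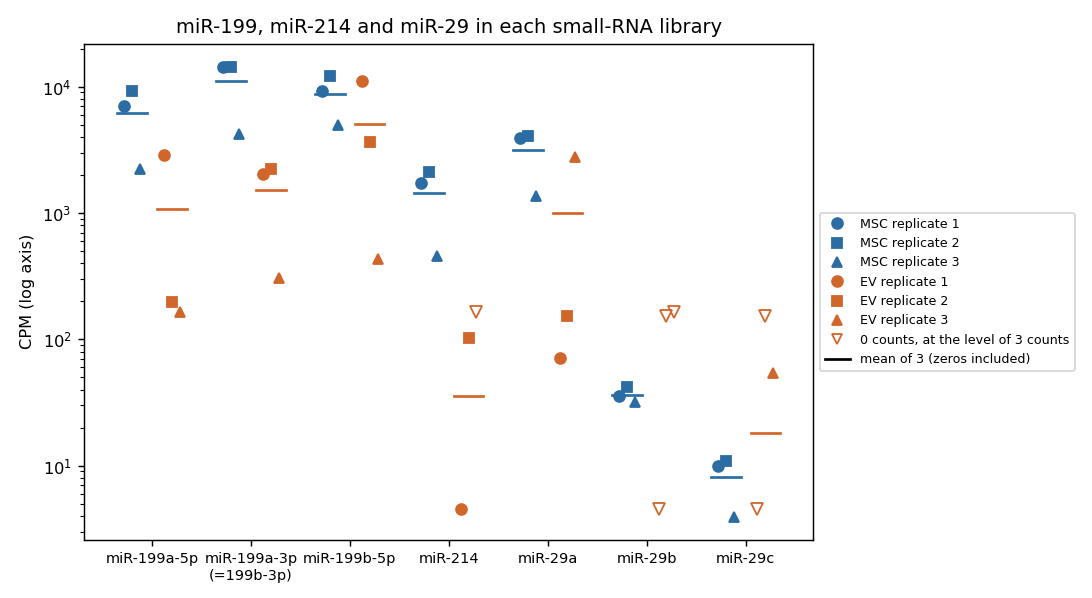
Level of each miRNA in each library as CPM on a log axis, with the MSC (blue) and EV (orange) libraries of pigs 1, 2 and 3 as points (replicates by pig), group means as lines, and counts of 0 as open triangles at the level of 3 counts. miR-214 reached 4.57, 103 and 0 CPM in EVs and at least 453 CPM in MSCs. miR-29a overlapped on this scale, at 2776 CPM in the EV and 1359 CPM in the MSC library of pig 3.

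The miR-199 genes accounted for nearly all counts of the group in MSCs. Over all 11 entries the members made up 7.21%, 7.997% and 2.38% of the counts of the MSC libraries of pigs 1, 2 and 3, and 2.31%, 1.09% and 0.452% of those of the EV libraries. miR-199 gave 92.0%, 92.2% and 92.1% of these counts in the MSC libraries, a share that differed little between animals. It gave 99.7%, 97.7% and 37.4% in the EV libraries. The MSC library of pig 3, in which miR-21 took most counts, had the lowest share of members among the MSC libraries.

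The 3p strand of miR-199 is the same mature miRNA whichever gene it comes from, and reads of it were shared out evenly. Its 3 entries, for the precursors mir-199a-1, mir-199a-2 and mir-199b, differed by at most 0.343% in any library, so that the names miR-199a-3p and miR-199b-3p are a single measurement under both names, and the 8 names hold 7 distinct sets of reads. In 1 entry miR-199a-3p stood at 14376, 14440 and 4186 CPM in the MSC libraries of pigs 1, 2 and 3 and at 2039.9, 2210.4 and 308 CPM in the EV libraries. Every EV library lay below every MSC library, at 1519.6 ± 1052 CPM against 11001 ± 5902 CPM (SD, n = 3). The EV level was 7.05-, 6.53- and 13.6-fold lower than that of the MSCs of the same pig, the last on 17 reads over the 3 entries. The log2 fold change by edgeR was -2.86 (SE 1.16, unadjusted p = 0.0412, adjusted p = 0.140). Its call was lost when any single library other than the EV library of pig 3 was left out, although the log2 fold change stayed between -3.39 and -2.90, and without that library it was -2.45 with an adjusted p of 0.0167 in edgeR. With upper quartile scaling it was -0.98 (unadjusted p = 0.507 in edgeR). The call of either name was also lost with entries summed per name and with library totals alone. For miR-199a-3p the log2 fold changes were then -2.78 and -2.82 (unadjusted p = 0.0545 and 0.0526 in edgeR).

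The 5p strands of miR-199a and miR-199b differ in sequence and were counted apart. miR-199a-5p, which has been described as targeting CAV1 and SIRT1, stood at 7059, 9171 and 2220.5 CPM in the MSC libraries and at 2861, 197 and 163 CPM in the EV libraries. These values are for 1 of its 2 entries, and the last pair rested on 3.83 and 3 counts. The EV library of pig 1 was above the MSC library of pig 3, so the groups overlapped, although the EV level was lower in each of the 3 pigs. The log2 fold change was -2.55 (SE 1.40), with an adjusted p of 0.272 in edgeR. It moved to -5.66 without the EV library of pig 1, with an unadjusted p of 0.00445, and to -4.37 with the pig as a block, with an unadjusted p of 0.0188 and an adjusted p of 0.530 in edgeR.

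miR-199b-5p showed no difference beyond the spread between libraries. It stood at 9159, 12095 and 4949 CPM in MSCs and at 11178, 3667 and 435 CPM in EVs, and was the most abundant member in the EV library of pig 1 with all entries summed. The EV library of pig 1, with 7343 counts, was 1.22-fold above the MSCs of that pig, whereas those of pigs 2 and 3 were 3.30-fold and 11.4-fold below. The log2 fold change was -0.96 (SE 1.28, adjusted p = 0.662 in edgeR), and it was -2.31 without the EV library of pig 1 and 0.56 with upper quartile scaling.

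The share of miR-199b in the 5p reads was higher in EVs than in MSCs, beyond counting error in pigs 1 and 2 only. miR-199b made up 39.3%, 39.7% and 52.7% of miR-199-5p reads in the MSC libraries and 66.1%, 90.3% and 57.1% in the EV libraries. The EV share was higher in every pig, and the groups did not overlap. The EV shares rested on 11101, 79 and 14 reads, with Wilson 95% intervals of 65.3% to 67.0%, 81.3% to 94.8% and 32.6% to 78.6%, and the last interval covers the MSC shares. The log2 ratio of miR-199b-5p to miR-199a-5p, a pair taken up after its values were seen, was 1.497 ± 1.45 in EVs and -0.36 ± 0.44 in MSCs with entries summed (SD, n = 3), a difference of 1.85 with a two-sided exact permutation p of 0.1. With 1 entry of miR-199a-5p the difference was 1.79, also with a two-sided exact permutation p of 0.1, which is the smallest that 3 against 3 libraries allow, and 0.16 after adjustment over 8 ratios. The latter was 0.98 without the EV library of pig 2. The log2 ratio of miR-199b-5p to the 3p strand was higher in EVs by 1.43 with the same exact permutation p of 0.1, or by 0.81 without the EV library of pig 1, and the groups again did not overlap. The ratio of miR-199a-5p to the 3p strand overlapped between the groups (exact permutation p = 0.9).

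miR-214, which is transcribed with miR-199a and has been described as targeting EZH2, was measured deeply in MSCs and barely in EVs. Its CPM was 1735, 2109 and 453 in the MSC libraries of pigs 1, 2 and 3, from 26708, 31017 and 4288 counts. In the EV libraries it was 4.57, 103 and 0 CPM, from 3, 2 and 0 counts. The highest EV value lay below the lowest MSC value. miR-214 ranked 44 among all names in the MSCs of pig 1 and 114 in the EVs of that pig, but 47 and 60 in those of pig 2. Had the EV libraries held miR-214 at the CPM of the MSCs of their own pig, their depth would have given 1139.5, 41.0 and 8.33 counts. The EV level of pig 1 was 379.8-fold lower, with an exact Poisson 95% interval of 129.98 to 1842 that covers counting error only. That of pig 2 was 20.5-fold lower (5.68 to 169), and that of pig 3 was at least 2.78-fold lower, taking 3 counts as the limit that a count of 0 allows. The log2 fold change was -5.90 (SE 1.83, unadjusted p = 0.0137, adjusted p = 0.0813 in edgeR). It ranged from -8.61 without the EV library of pig 2 to -5.11 without that of pig 1, and the adjusted p of edgeR was 0.0390 without that of pig 3. With upper quartile scaling it was -4.02 and the call was lost (unadjusted p = 0.0875 in edgeR).

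**Figure D2:**
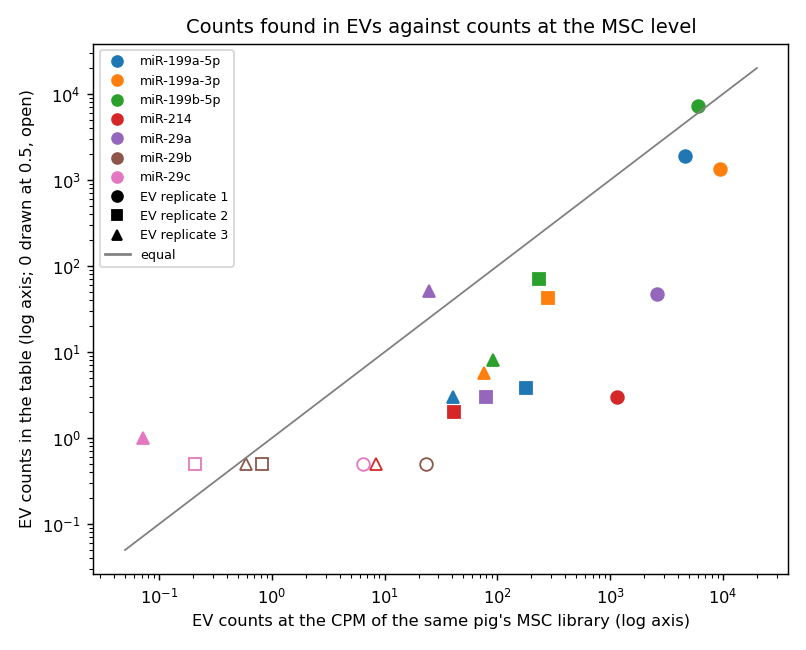
Counts observed in each EV library against the counts that its depth would give at the CPM of the MSCs of the same pig, both on log axes, with counts of 0 drawn open at 0.5. Points under the line of equal counts were lower in EVs, as for miR-214 with 3 counts against 1139.5 in pig 1, and miR-199b-5p of pig 1, miR-29a of pig 3 (51 counts against 25.0) and miR-29c of pig 3 (1 count) lay above it, as did the open point of miR-29c of pig 2.

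The precursors of miR-199a and miR-214 are neighbours. In the RefSeq annotation of the assembly Sscrofa11.1, in which all 8 precursors of the members were matched, mir-199a-1 and mir-214 lie within 10 kb of each other inside DNM3, mir-199a-2 lies inside DNM2 and mir-199b inside DNM1. In MSCs 1 entry of the 3p strand exceeded miR-214 by log2 ratios of 3.05, 2.78 and 3.21, which spanned a narrow range. In the EV libraries the ratios were 8.58, 4.12 and 3.63, all above those of the MSCs, on 3, 2 and 0 counts of miR-214 and with 0.5 added to each count. The difference of 2.43 had a two-sided exact permutation p of 0.1 and an adjusted p of 0.16, and it was 0.86 without the EV library of pig 1. With 1 added to each count the groups overlapped, and the difference was 1.99 (exact permutation p = 0.4). The ratio of miR-199a-5p to miR-214 overlapped between the groups (exact permutation p = 0.7).

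miR-29a, the most abundant miR-29, was low in the EVs of pigs 1 and 2 and high in those of pig 3. Its CPM was 3959, 4062 and 1359 in the MSC libraries and 71.6, 154 and 2776 in the EV libraries. The first pair of EV values lay below all MSC values, and the last lay above the MSC value of the same pig. The EV level of pig 1, from 47 counts, was 55.3-fold below that of its MSCs (exact Poisson 95% interval 41.6 to 75.3), and that of pig 2, from 3 counts, was 26.3-fold below (9.01 to 128). In pig 3 the EV library held 51 counts where the MSC level would have given 25.0, which is 2.04-fold higher. In that pig the direction depended on the scaling, since after TMM normalization the EV level was 1040.1 and the MSC level 4567 CPM. The log2 fold change was -3.17 (SE 1.15, unadjusted p = 0.0272, adjusted p = 0.108 in edgeR). It was -5.06 without the EV library of pig 3, with an adjusted p of 0.0131 in edgeR, and the call was lost without any other library, at log2 fold changes from -3.12 to -2.70. It was also lost with RLE factors (-2.41), upper quartile factors (-2.18), library totals alone (-1.53), DESeq2 (-2.41) and limma (-3.15 and -3.16). The EV library of pig 3 is the one with 3837 CPM of blood and endothelial miRNAs, and their part in its miR-29a level was not tested.

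miR-29b and miR-29c were scarce in both groups. miR-29b stood at 35.6, 42.1 and 32.0 CPM in MSCs (36.5 ± 5.11, SD, n = 3), from 548, 618.5 and 302 counts in 1 of its 2 entries, and had no count in any EV library. At the MSC level the EV libraries would have held 23.4, 0.818 and 0.587 counts. The EV level of pig 1 was thus at least 7.79-fold lower, whereas a difference was not detectable at the depth of the others. Of all tested miRNAs, 15% were at 0 in every EV library. miR-29b was called lower by the thresholds of the study (unadjusted p = 0.0108, adjusted p = 0.0813 in edgeR), and its fitted fold change is not given because it depends on the prior count. It passed the filter on low counts only through the MSC libraries, so it could be called lower or not at all, and its call is not read as support. With the pig as a block its unadjusted p was 0.139 and its adjusted p 0.634 in edgeR. miR-29c stood at 9.86, 10.8 and 3.91 CPM in MSCs and at 0, 0 and 54.4 CPM in EVs, the last from 1 count. Its groups overlapped, with a log2 fold change of -1.46 (SE 1.70, adjusted p = 0.629 in edgeR). This turned to 0.37 without the EV library of pig 1, to 0.15 with library totals alone and to 0.0340 with DESeq2. The ratios of miR-29b or miR-29c to other members are not read, since they rest on 0 or 1 count in each EV library.

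**Figure D3:**
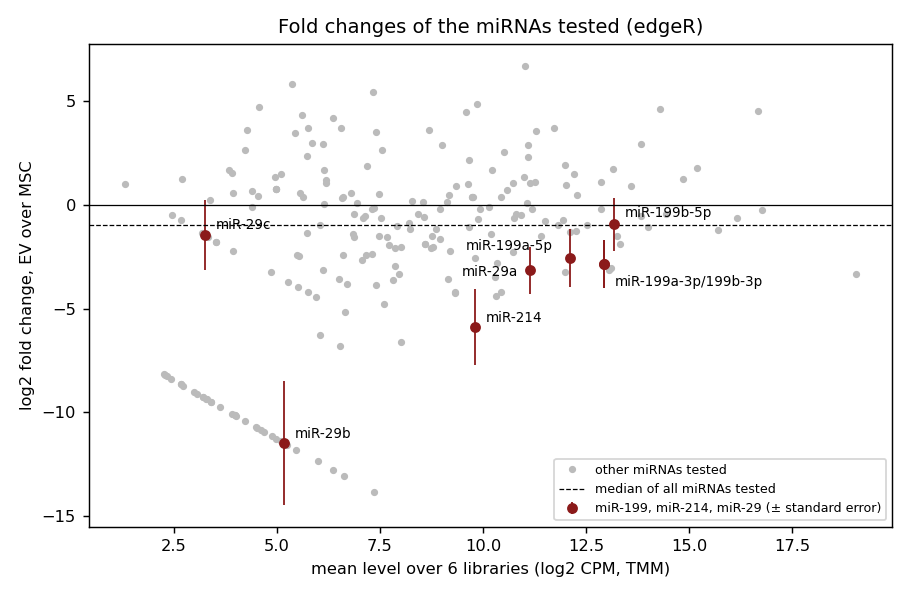
Log2 fold change of EVs over MSCs by edgeR against the mean level as log2 CPM, with the 8 members in red with their SE, the other tested miRNAs in grey and the median of all as a dashed line at -0.999. All 8 members lay below 0 here, although miR-199b-5p moved to 0.56 with upper quartile scaling and miR-29c to 0.15 with library totals and 0.0340 with DESeq2. miR-214 stood at -5.90, and miR-29b lay on the oblique line of names at 0 in every EV library, whose height depends on the prior count.

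Read on the deposited CPM alone, 4 of the 8 members had every EV library below every MSC library: miR-199a-3p, miR-199b-3p, miR-214 and miR-29b. Of all tested miRNAs, 23.6% did so, and 6.82% lay above in the same way. miR-29b, kept by the filter only through the MSC libraries, could not have lain above. Each of the 4 had a two-sided exact permutation p of 0.1 on log2(CPM + 1), and 0.2 after adjustment over the 8 members. The EV level was lower in all 3 pigs for 5 members, the same 4 and miR-199a-5p, against 25.9% of all tested miRNAs. With miR-21 left out of the library totals, 6 members had every EV library below every MSC library, with miR-29a and miR-199a-5p added. miR-21 took 74.4% of the counts of the MSC library of pig 3, so leaving it out raised the CPM of every other name there. The share of all miRNAs was not computed for that setting, so its count is not read as a result about the members.

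The order of the members was nearly fixed in the cells and changed in the vesicles. With the entries of each mature sequence summed, the 3p strand came first in all 3 MSC libraries, at 43093, 43272 and 12530.03 CPM. miR-199a-5p was above miR-199b-5p in pigs 1 and 2 and below it in pig 3, and miR-29a, miR-214, miR-29b and miR-29c followed in this order in each pig. In MSCs miR-199a-5p, at 12299.5 ± 7127 CPM summed, and miR-199b-5p, at 8734 ± 3592 CPM, differed by less than the SD of either. miR-29a at 3127 ± 1532 CPM and miR-214 at 1432 ± 868 CPM were also neighbours, with miR-29a higher in each pig. In EVs miR-199b-5p came first in pig 1, at 11178 CPM against 6119.8 CPM of the 3p strand summed. The 3p strand came first in pig 2, at 6631 CPM against 3667 CPM of miR-199b-5p, and miR-29a in pig 3, at 2776 CPM against 926 CPM of the 3p strand. The group mean of miR-29a in EVs, 1000.5 ± 1538 CPM, had an SD larger than the mean, as had that of miR-199a-5p at 2147 ± 3096 CPM summed and that of miR-199b-5p at 5093 ± 5512 CPM.

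Within the member counts, miR-29a made up 5.49%, 5.08% and 5.71% in the MSC libraries. It made up 0.310%, 1.41% and 61.4% in the EV libraries, from 15171, 213 and 83 member counts. The share in pig 3 had a Wilson 95% interval of 50.7% to 71.2%, far from the other EV libraries. miR-214 made up 2.40%, 2.64% and 1.91% in MSCs and 0.0198%, 0.939% and 0% in EVs, where the 0 allows up to 4.42%.

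**Figure D4:**
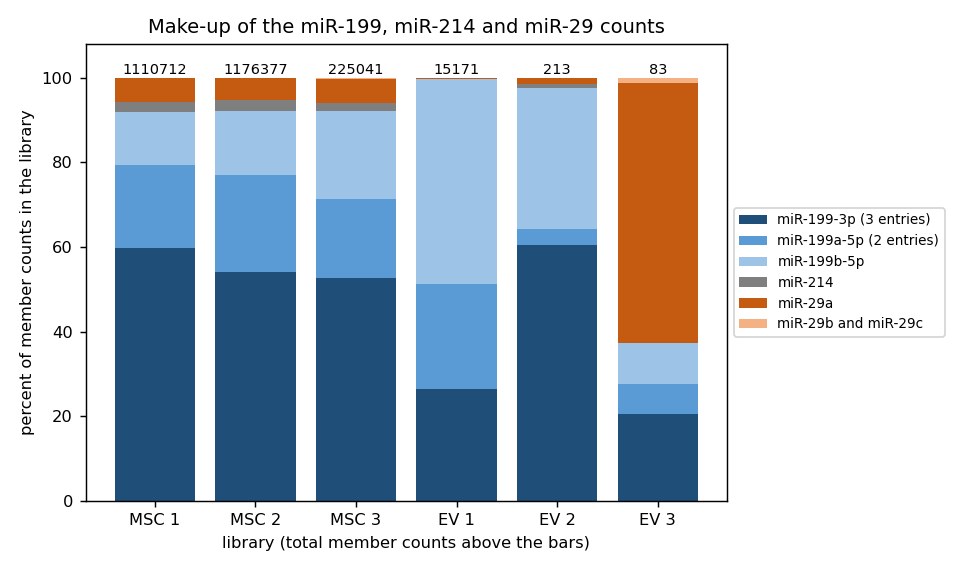
Makeup of the member counts of each library in percent, over all 11 entries, as stacked bars from 0 to 100. The MSC bars are alike, the EV bars of pigs 1 and 2 are almost wholly miR-199, and the EV bar of pig 3 is 61.4% miR-29a on 83 counts.

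The miRNAs whose pattern was most like each leading member were found, with members led by the level of 1 entry, by Pearson's r of log2(CPM + 1) over the 6 libraries, among 219 others. These are descriptions, since all names share the same libraries and depths. For miR-199b-5p they were miR-7134-3p (r = 0.94), miR-145-3p (0.91) and miR-450c-5p (0.89), each at 0 in the EV library of pig 3. For miR-214 they were miR-199a-3p and miR-199b-3p (both 0.94) and miR-145-3p (0.90). For miR-29a they were miR-7142-3p, miR-16 and miR-151-5p (each 0.99). This last group was at 0 in the EV libraries of pigs 1 and 2 and at 54.4, 272 and 109 CPM in that of pig 3, so the likeness to miR-29a follows the contrast between these libraries.

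Few of the messenger RNAs listed as targets of the 3 families were called in the comparison of EVs with MSCs. Of 45 listed targets, 39 had an entry under their symbol and 27 passed the filter on low counts, while 10 had 5 reads or fewer in all. By the thresholds of the study 3 were higher in EVs and 0 lower, against 5.55% higher and 3.57% lower among 12392 entries tested. None passed the adjustment in edgeR, nor did any other entry, with a lowest adjusted p of 0.129 (1978 entries had an unadjusted p under 0.05, and 2 of the listed targets passed with DESeq2). The median log2 fold change was 0.24 over the 27 targets and -0.02 over all entries. The strand of these counts was not given, so that reads of antisense partners cannot be separated.

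The 3 genes that were higher all belonged to the 24 listed targets of miR-29, of which 17 were tested and 13 had a log2 fold change above 0 (median 0.51), as had 6079 of all 12392 entries. COL5A3, a fibrillar collagen chain gene (susScr3 chr2:69156853-69197838), had 4, 12 and 3 reads in the MSC libraries of pigs 1, 2 and 3 and 31, 83 and 37 in the EV libraries. Every EV value exceeded every MSC value at these low counts. Its log2 fold change was 2.91 (SE 0.69, adjusted p = 0.219 in edgeR, or 0.0404 with the pig as a block). TET1, an enzyme that oxidizes methylated cytosine (chr14:77827790-77828785), was read 8, 2 and 12 times in the MSC libraries and 29, 70 and 47 times in the EV libraries. These groups did not overlap either, and the log2 fold change was 2.76 (SE 0.63, adjusted p = 0.219 in edgeR). COL5A3 and TET1 had so few MSC reads that they passed the filter on low counts only through the EV libraries, where they were high. Their calls and lack of overlap are thus partly set by that filter. Of all entries tested, 14.3% lay higher in EVs without overlap. The TET1 entry is much shorter than that of TET3 below, and whether it covers the whole gene was not checked. TET3, of the same family (chr3:72080815-72176994), was read 241, 73 and 166 times in the MSC libraries and 236, 338 and 514 times in the EV libraries. Its log2 fold change was 1.30 (SE 0.48, adjusted p = 0.275 in edgeR), and its call was lost without the MSC library of pig 2 or 3 (log2 fold change 1.00 and 1.34) or the EV library of pig 3 (0.80). The lowest value of this list was that of the DNA methyltransferase gene DNMT3B (-0.51, SE 0.55, adjusted p = 0.636 in edgeR). The elastin gene ELN was at 426, 1112 and 2016 reads in the MSC and 1443, 1483 and 7497 reads in the EV libraries. Its log2 fold change of 1.68 had an unadjusted p of 0.0902 in edgeR. With the pig as a block it was 1.40 (unadjusted p = 0.00825, adjusted p = 0.128 in edgeR), which made ELN the 4th target called higher. Other tested matrix genes of the list had log2 fold changes nearer 0 and overlapping groups. They were COL4A2 (-0.05), SPARC (-0.10), FBN1 (0.09), COL5A2 (0.24) and COL5A1 (0.43). LAMC1 (0.86) was higher in EVs without overlap but was not called. COL1A2 and COL3A1 were listed at 0 reads, each beside another entry over the same span, and COL1A1, COL4A1, TET2 and CDK6 had no entry under these symbols. The study itself names TET2 among its EV-enriched mRNAs, so its absence here concerns the matching of symbols only.

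Of the 11 listed targets of miR-199a, 7 were tested, none was called in either direction, and the median log2 fold change was -0.44. SIRT1, a deacetylase gene, was the highest of them at 0.81 (SE 0.35, adjusted p = 0.311 in edgeR), from 173, 73 and 154 MSC reads and 223, 312 and 155 EV reads. MET, which encodes the receptor for hepatocyte growth factor, was the lowest at -1.08 (SE 0.74, adjusted p = 0.462 in edgeR), from 61, 7 and 61 MSC reads and 29, 12 and 16 EV reads. Without the MSC library of pig 2 it was called lower at -1.56. Of the 10 listed targets of miR-214 only 3 were tested. They were FGFR1 at 0.37, MFN2 at -0.10 and MAPK8 at -0.22, none of which was called, and QKI was listed at 0 reads beside another entry over the same span.

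The dynamin genes, whose spans hold the miR-199 precursors, went in opposite directions without passing the adjustment. Strand was not compared in placing the precursors, so a shared transcript is not implied. DNM1, which encodes a GTPase of vesicle scission and spans mir-199b, was read 3383, 2806 and 3267 times in the MSC libraries and 3918, 5576 and 4862 times in the EV libraries. The EV values were all higher, with a log2 fold change of 0.64 (SE 0.25, unadjusted p = 0.0341, adjusted p = 0.285 in edgeR). DNM2, which spans mir-199a-2, was read 2337, 2090 and 1955 times in the MSC libraries and 1619, 1856 and 1105 times in the EV libraries. The EV values were all lower, with a log2 fold change of -0.47 (SE 0.22, unadjusted p = 0.0670, adjusted p = 0.333 in edgeR). Neither reached a fold change of 2, and 14.3% and 13.6% of all entries tested were without overlap in the higher and lower direction. DNM3 and TWIST1 had no entry under these symbols.

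**Figure D5:**
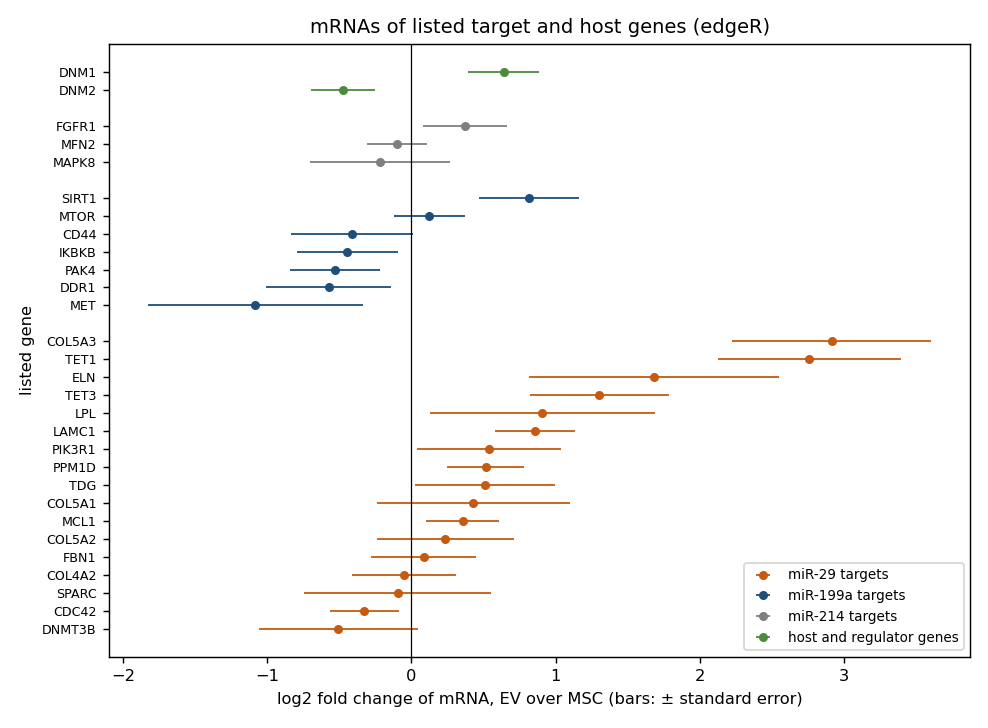
Log2 fold changes of EVs over MSCs by edgeR for the tested mRNAs of each target list and of DNM1 and DNM2, 1 point a gene with its SE as a bar. Colours mark the lists, and DNM1 and DNM2 are drawn as host and regulator genes because their spans hold miR-199 precursors. The called genes are COL5A3 at 2.91, TET1 at 2.76 and TET3 at 1.30, and the medians of the target lists ran from -0.44 for miR-199a to 0.51 for miR-29.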

How the data were processed

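Small RNA and mRNA libraries came from MSCs and EVs of 3 pigs, grouped by the labels. The authors made the deposited miRNA values with CAP-miRSeq, in a table of expected counts in which reads that match several precursors are shared in fractions, and in a table of CPM of the column total. The deposited mRNA raw counts and RPKM came from MAPRSeq (TopHat, with featureCounts in the study's methods and HTSeq in the submitters' processing notes). The build was susScr3 per the labels. No other per-sample column was present. The 3 mRNA entries shifted by a column were left out, and 29658 were used, with symbols from the table or, for 11804 of 25322 Ensembl identifiers, from the annotation.

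Members and gene lists were chosen with earlier results of these data known. Expected counts were rounded to whole numbers and tested with edgeR 4.0.16 in R 4.3.3 (TMM, filterByExpr, quasi-likelihood test, Benjamini-Hochberg adjustment over all features), after checks on simulated data. Deposited CPM and log2(count + 0.5) ratios were compared by exact permutation tests. Wilson and Poisson 95% intervals cover counting error only. The text names all members, the 3 miRNAs most like each leading member, and in each mRNA list the genes called, the highest and the lowest, with DNM1, DNM2, DNM3 and TWIST1. ELN, the other matrix genes of the miR-29 list, MFN2 and the genes listed at 0 or without an entry were added after their values were seen. Alternatives were other scaling factors, no filter, DESeq2 1.42.0, edgeR's exact test, limma 3.58.1 on log2 CPM (pseudocounts 1 and 0.1) or log2 RPKM, entries summed, miR-21 left out, the pig as a block, and each library left out. The labels give the pig of each library, which pairs the groups. Deviations from the group means correlated between both libraries of a pig at -0.22, -0.01 and -0.12 for miRNA and at 0.23, 0.37 and 0.39 for mRNA. The titles number the pigs differently in the 2 assays, so pairs were used within an assay only. Those of the small RNA libraries of pig 3 follow another form and code, so pig and title form cannot be told apart there. The labels name no separate cultures within a pig. The authors' mRNA totals ran from 10429085 to 12276855 reads a library, with the depth of the small RNA libraries given above. No sequences of the miRNAs are shown.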

Additional observations from a re-analysis of the deposited data

How the results depend on the processing

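The calls of the members depended on the scaling and on single libraries. The number called lower by the study thresholds, 5, became 1 with upper quartile factors, 2 with library totals alone and 3 with entries summed, and 2 to 6 when 1 library was left out (6 without the EV library of pig 3). Over all miRNAs the number lower, 53, became 37 with upper quartile factors, 39 with library totals alone and 51 with entries summed. The number of members past the adjusted threshold, 0, became 1 with DESeq2, 2 with edgeR's exact test, 1 with limma at either pseudocount, and 0 to 6 when 1 library was left out. With the pig as a replicate block 5 members were again lower, with miR-199a-5p in place of miR-29b, and 0 passed the adjusted threshold. Among the listed mRNA targets, 0 past the adjusted threshold became 2 with DESeq2 and 1 with the block (COL5A3), the 3 higher became 0 with limma on RPKM, and the 0 lower became 0 to 1 when 1 library was left out.

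Values changed sign for miR-199b-5p with upper quartile factors (0.56), for miR-29c with library totals (0.15), DESeq2 (0.0340) and when 1 library was left out (-9.26, set by the prior count since the EV counts were then 0, to 0.37), and for the log2 ratio of miR-29a to miR-29b with entries summed (0.0873). Ratios that changed sign when 1 library was left out were miR-29a to miR-29b (-1.58 to 0.36), miR-199a-5p to miR-214 (-0.35 to 3.79) and miR-199a-5p to miR-199a-3p (-1.21 to 0.70), as did MAPK8 (-0.58 to 0.0167). The ratios of miR-29b and miR-29c rest on 0 or 1 count in EVs and are set by the pseudocount. The cause of these changes was not tested.

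Over all miRNAs, the counts lower and higher by the study thresholds (53 and 14) were 37 and 27 with upper quartile factors, 30 and 27 with DESeq2, and 14 and 3 with the block. With limma 6 were higher at either pseudocount. Leaving out 1 library gave 16 to 112 lower and 3 to 24 higher. Past the adjusted threshold (0 and 0) there were 14 and 14 with DESeq2, 26 and 9 with edgeR's exact test, 36 and 0 with limma, and 0 to 96 and 0 to 20 with 1 library left out. The median log2 fold change of all miRNAs was -0.999 with TMM, -0.49 with RLE factors, -0.03 with upper quartile factors, 0.00 with library totals, -3.38 with limma at a pseudocount of 0.1 and -6.39 without the EV library of pig 3. The EV libraries of pigs 2 and 3 had 6 counts for a tested miRNA at the median, and a count of 0 there allows up to 154 CPM in pig 2 and 163 CPM in pig 3. With 1 added to each count, 4 ratios of 8 were without overlap in place of 5. miR-29c did not pass the filter when an MSC library was left out.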
